A study of Mus musculus with 72 samples.

Results

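The genes followed here, Slc2a2, Gckr, Khk, Pfkl, Pfkfb1, Pfkfb3 and Pklr, serve hexose entry and glycolysis in the liver and were chosen by symbol, 7 of the 27846 genes in the gene count table. Glucose and fructose enter hepatocytes through GLUT2, the transporter that Slc2a2 encodes, and glucose is then phosphorylated by glucokinase, which the Gckr product (the glucokinase regulatory protein) holds inactive in the nucleus until glucose or fructose 1-phosphate releases it. Phosphofructokinase, whose liver subunit is Pfkl, commits the sugar to glycolysis and is activated by fructose 2,6-bisphosphate. That metabolite is made and removed by the bifunctional enzymes of the Pfkfb family, of which Pfkfb1 encodes the liver form and Pfkfb3 a form with mostly kinase activity. Pyruvate kinase, encoded in liver by Pklr, closes the pathway, and ketohexokinase, encoded by Khk, starts the separate route by which fructose bypasses phosphofructokinase. The liver is known to adjust these steps to feeding, and Pklr and Khk are known to respond to carbohydrate supply.

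The series profiled whole liver from female misaligned, female control, male misaligned and male control mice. Livers were taken at 6 clock times, 4 h apart from 00:00 to 20:00, with 3 livers in each of the 24 groups and 72 in all, described by the submitters as biological replicates. Every mouse was a wild-type C57bl6 animal, 8 to 16 weeks old in the submitters' description, housed under 12 h of light and 12 h of dark with free access to food. All groups, controls included, were moved to a diet in which fat gave 42% of calories when the control or misalignment regimen began, so every value here is from fat-fed mice. The sources used here do not describe the misalignment schedule, and clock times are used as the sample titles give them.

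Each library held 11551524 to 12529963 gene counts (median 12005221), and the 6 hepatocyte markers examined, Alb and Ttr among them, were detected in every group, with summed levels of 66510 to 132200 CPM, the count scaled to the TMM-adjusted library size. The median of the hepatocyte sums was higher in females than in males, as given below. In bulk liver, fewer cells of a type and less RNA per cell cannot be told apart. The male livers of 20:00 differed between treatments in several marker lists. Their 5 cholangiocyte markers summed to 66.4 to 159.5 CPM in misaligned livers, against 248.5 to 373.1 CPM in control livers. Both sums were within the range of the other male livers. Most of each sum was Spp1, at 60.4 to 150.4 CPM in misaligned and 236.4 to 352.1 CPM in control livers. Epcam and Sox9, at low levels, were also lower in misaligned livers without overlap, while Krt19 and Krt7 overlapped. Within one clock time, Dbp, an output gene of the circadian clock, differed between the highest and the lowest of the 3 livers by a median of 10.5-fold in misaligned males, against 1.85-fold in control males. The same spread was 2.56-fold in misaligned females and 1.68-fold in control females, so male misaligned livers of one clock time were far apart in clock gene level.

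All 7 genes passed the filter on low counts. Per kilobase of annotated exon, averaged over the 72 livers, Khk was the most abundant at 315.4 ± 66.5 CPM per kb (SD, n = 72), followed by Pklr at 206.8 ± 63.4 CPM per kb. Gckr at 58.7 ± 10.4 and Slc2a2 at 57.2 ± 10.9 CPM per kb followed and could not be ranked against each other within that spread. Pfkfb1 stood at 13.2 ± 4.54 CPM per kb, Pfkl at 7.43 ± 1.41 and Pfkfb3 at 2.14 ± 1.49 CPM per kb. Without the division by length, Pklr ranked above 98.8% of the 15066 genes tested and Pfkfb3 above 59.2%. Pfkfb3 was also the most variable: its group means ran from 35.4 CPM in misaligned males at 20:00 to 6.27 CPM in control females at 00:00, a 5.65-fold span over the 24 groups. The spans of the other 6 genes were 1.64-fold for Gckr, 1.70-fold for Pfkl, 1.80-fold for Slc2a2, 1.85-fold for Khk, 1.96-fold for Pklr and 2.54-fold for Pfkfb1.

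**Figure D1:**
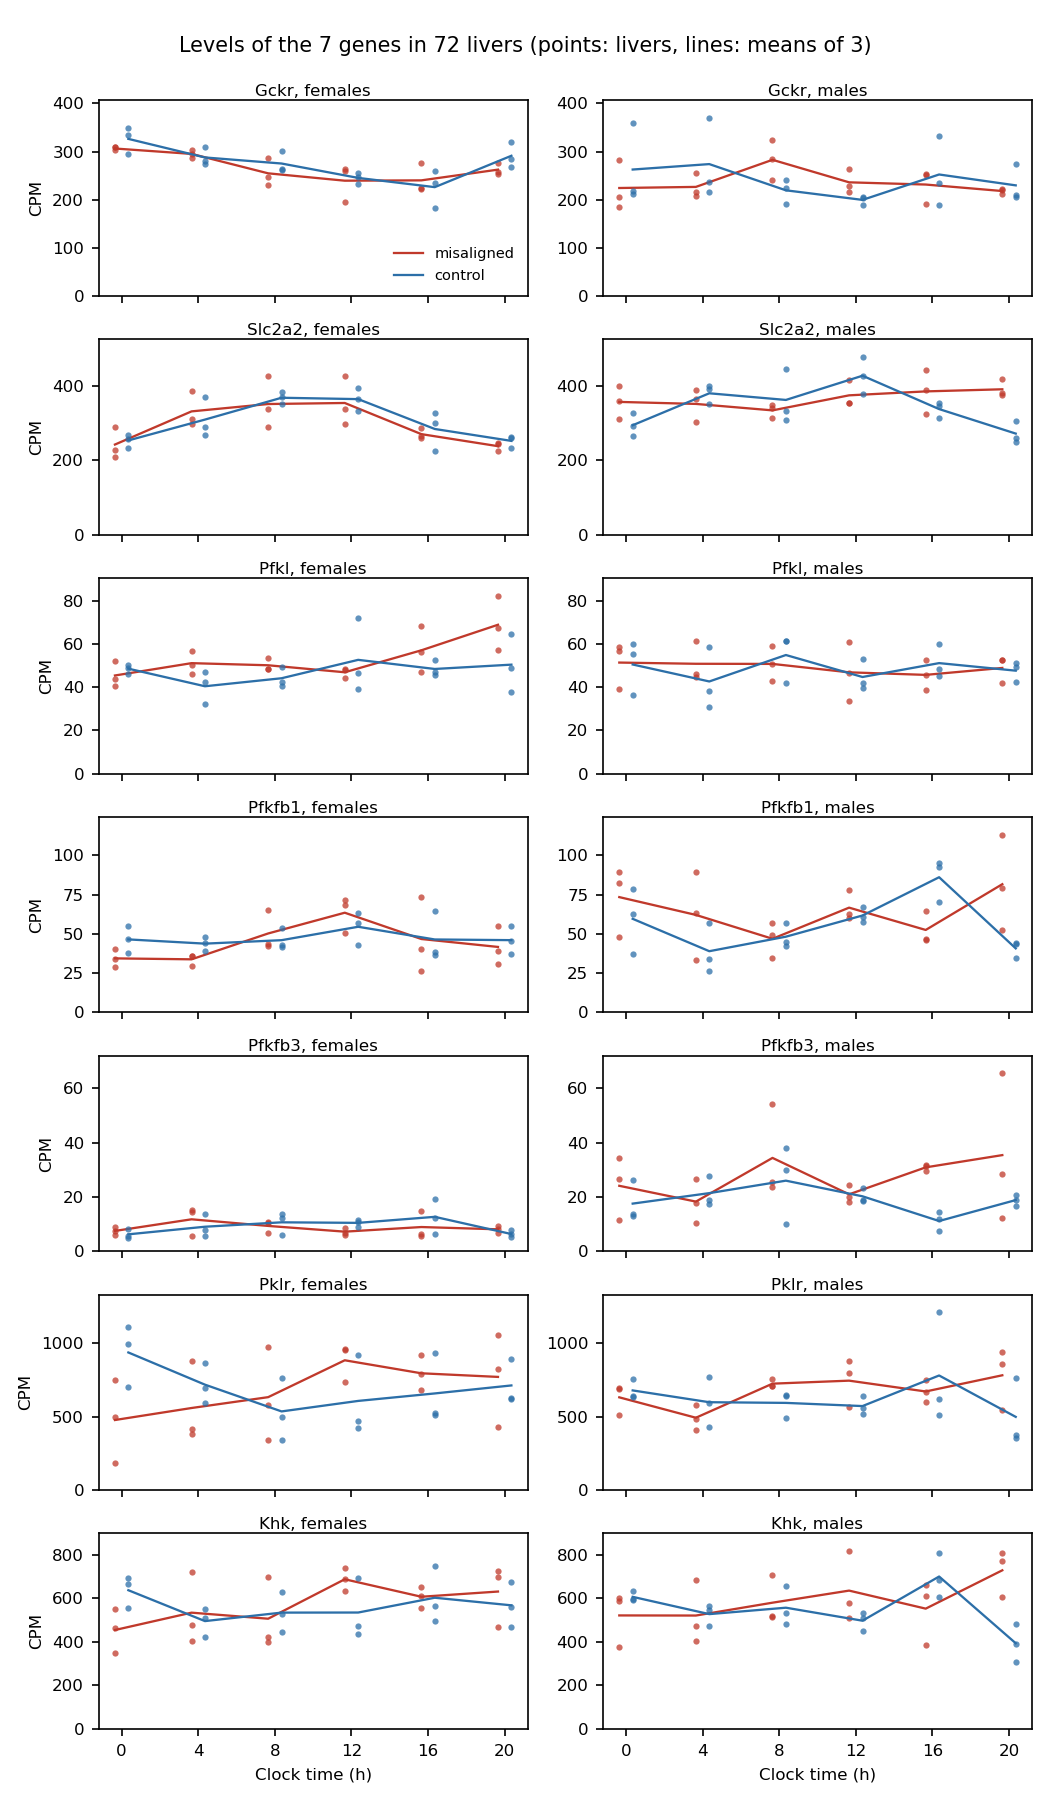
Level of each of the 7 genes in every liver (points, CPM) by clock time (h), with group means joined by lines, for misaligned and control livers of each sex. Slc2a2 is higher at 8 and 12 h than at 0 and 20 h in 3 of the 4 groups and not in misaligned males, and mean Pfkfb3 lies lower in misaligned females than in misaligned males at all 6 clock times and lower in control females than in control males at 5 of the 6, the exception being 16 h.

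Sequences around the start sites are shown for 5 promoters. For Slc2a2 and Khk the window holds a motif that was searched. For Pfkfb3, Pfkfb1 and Pklr the window is that of the counted start with the most reads joining its first exon, as given below. Other windows of Pfkfb1 and Pklr that hold a motif are not shown. The windows come from RefSeq (GRCm38.p6), run from 250 bases before to 50 bases after an annotated start, and are printed on the gene's strand with matched motifs in capitals. All 7 genes matched, with 12 windows among them.

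Slc2a2 (chr3:28697653-28697952, plus strand): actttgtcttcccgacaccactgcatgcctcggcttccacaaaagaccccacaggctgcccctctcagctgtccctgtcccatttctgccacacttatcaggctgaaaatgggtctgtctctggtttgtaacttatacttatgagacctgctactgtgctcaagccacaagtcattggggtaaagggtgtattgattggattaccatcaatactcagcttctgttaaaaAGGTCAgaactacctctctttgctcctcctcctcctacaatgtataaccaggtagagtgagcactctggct

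Khk (chr5:30921309-30921608, plus strand): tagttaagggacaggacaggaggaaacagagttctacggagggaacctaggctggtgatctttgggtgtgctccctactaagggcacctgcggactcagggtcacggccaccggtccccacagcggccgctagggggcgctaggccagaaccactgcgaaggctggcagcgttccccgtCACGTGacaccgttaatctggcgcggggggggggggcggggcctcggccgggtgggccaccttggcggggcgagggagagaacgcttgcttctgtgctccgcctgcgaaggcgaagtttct

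Pfkfb3, downstream start (chr2:11502041-11502340, minus strand): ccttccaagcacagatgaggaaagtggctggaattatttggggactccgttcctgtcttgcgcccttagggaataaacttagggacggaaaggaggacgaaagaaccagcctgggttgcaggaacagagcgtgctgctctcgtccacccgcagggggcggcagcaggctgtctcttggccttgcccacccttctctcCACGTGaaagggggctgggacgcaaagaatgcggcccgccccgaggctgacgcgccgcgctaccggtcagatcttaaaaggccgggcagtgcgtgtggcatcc

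Pfkfb1, most downstream start (chrX:150594178-150594477, plus strand): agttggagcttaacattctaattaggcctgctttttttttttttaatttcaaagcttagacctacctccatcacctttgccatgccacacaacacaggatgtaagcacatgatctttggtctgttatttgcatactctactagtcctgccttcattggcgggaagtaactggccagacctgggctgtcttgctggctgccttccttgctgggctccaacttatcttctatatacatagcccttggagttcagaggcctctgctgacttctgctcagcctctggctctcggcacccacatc

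Pklr, downstream start (chr3:89136373-89136672, plus strand): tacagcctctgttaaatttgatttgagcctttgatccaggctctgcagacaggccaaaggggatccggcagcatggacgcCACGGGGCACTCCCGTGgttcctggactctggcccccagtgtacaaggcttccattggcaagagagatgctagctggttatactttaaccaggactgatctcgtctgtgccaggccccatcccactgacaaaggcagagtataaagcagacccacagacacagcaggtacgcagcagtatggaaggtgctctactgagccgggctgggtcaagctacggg

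Both strands were searched for 3 motifs. The E-box CACGTG, which clock activators bind, was in the Khk window and the Pfkfb3 downstream window, 2 of the 12, and in 7.15% of all 32851 windows of the table. The letters AGGTCA, the core of many nuclear receptor elements, were in 3 of the 12 windows (Slc2a2, the middle start of Pfkfb1 and the upstream start of Pklr) and in 16.3% of all. The D-box TTATGNAA was in none of the 12 and in 3.38% of all. A pair of CACGTG motifs 5 bases apart occurred in 0 of the 32851 windows. The letters CACGGG, followed 5 bases later by CCCGTG, stood in the downstream Pklr window and in 1 window of the table in all. That pattern was chosen after the Pklr sequence had been read, so its rarity is a description of the letters only.

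Reads that join first exons to the rest of a transcript were counted for annotated starts, and they were few beside the gene counts. For Pklr the upstream first exon, that of the red cell form, had 0 joining reads over the 72 livers, against 313 reads for the downstream first exon and 62 for a shorter form of it. The Pfkfb1 first exon at the most downstream start was joined by 2234 reads, 10 to 55 in each liver, against 198 reads for the middle start and 66 for the upstream one. The downstream Pfkfb3 first exon had 146 joining reads and the upstream one 10. For Pklr and Pfkfb3 the downstream first exon had medians of 4 and 1 joining reads per liver. The whole genes held 578210 and 13988 counts over the 72 livers, so nearly all counts were tied to no start. A Pfkfb1 start upstream of these 3 (window chrX:150587195-150587494) was not counted. The windows printed for Pklr, Pfkfb1 and Pfkfb3 are those of the counted starts with the most reads.

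Slc2a2 (chromosome 3, 28697903 to 28731359, plus strand, GRCm38) was the one gene of the 7 with a called 24 h rhythm in the gene counts. It rose and fell over the day in misaligned females, control females and control males, with a peak near the middle of the clock day, and was flatter in misaligned males. In misaligned females the 3 livers had 427.4, 288.9 and 339.8 CPM at 08:00 and 243.1, 245.7 and 226.5 CPM at 20:00. In control females they had 351.9, 384.9 and 370.0 CPM at 08:00 and 234.7, 261.3 and 262.3 CPM at 20:00. The 08:00 livers were all above the 20:00 livers in both female groups. In misaligned males the values were 314.7, 341.3 and 348.7 CPM at 08:00 and 419.3, 375.6 and 380.4 CPM at 20:00. In control males they were 308.3, 446.8 and 333.8 CPM at 08:00 and 306.5, 249.9 and 260.6 CPM at 20:00. The order of 08:00 and 20:00 in misaligned males was thus opposite to that in the other 3 groups.

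A cosine of 24 h was fitted to each group of 18 livers with edgeR's quasi-likelihood test, and p-values were adjusted by Benjamini-Hochberg over all 15066 genes. The Slc2a2 amplitude, from mean to peak on the log2 scale, was 0.34 ± 0.058 (SE) in misaligned females, with a peak at 8.83 ± 0.663 h and an adjusted p of 0.00017. In control females it was 0.31 ± 0.058 with a peak at 9.46 ± 0.714 h (adjusted p = 0.000302). These are peak-to-trough ratios of 1.59 and 1.54, and the test of the change between the female groups did not pass (adjusted p = 0.977). In misaligned males the amplitude was 0.10 ± 0.058 with an adjusted p of 0.802, and in control males 0.28 ± 0.058 with a peak at 9.47 ± 0.792 h and an adjusted p of 0.00242. The change of rhythm between misaligned and control males was called, with an adjusted p of 0.0108 and an amplitude difference of -0.18 ± 0.082. The test of whether that change differed between the sexes was called for 0 of the 7 genes (1.73% of all genes), with an adjusted p of 0.147 for Slc2a2. The control male rhythm and the change in males were not called without the livers of 20:00, an alternative chosen after the data were seen (adjusted p = 0.124 and 0.278). Over 15 alternative settings the change in males was called in 11, with adjusted p-values of 0.00276 to 0.326, and it was called with each of the 72 libraries left out in turn.

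Read against all genes, 1 of the 7 had a called rhythm in misaligned females, where 7.69% of the genes tested had one, 1 of 7 in control females (12% of genes), 0 of 7 in misaligned males (0.00664%, which is 1 gene) and 1 of 7 in control males (10.8%). A changed rhythm was called for 0 of the 7 in females (0.192% of genes) and for 1 of the 7 in males (9.23%). The share among the 7 was near that of all genes. The next smallest adjusted p-values were those of Gckr in control females, with an amplitude of 0.22 ± 0.070 and an adjusted p of 0.0656, and of Pfkfb1 in misaligned females, with 0.42 ± 0.131 and 0.0792. Slc2a2 introns carried 102 to 243 counts per liver, and their amplitudes of 0.29 ± 0.080 in control females (adjusted p = 0.0582) and 0.17 ± 0.080 in control males (adjusted p = 0.496) did not pass the test in any group.

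**Figure D2:**
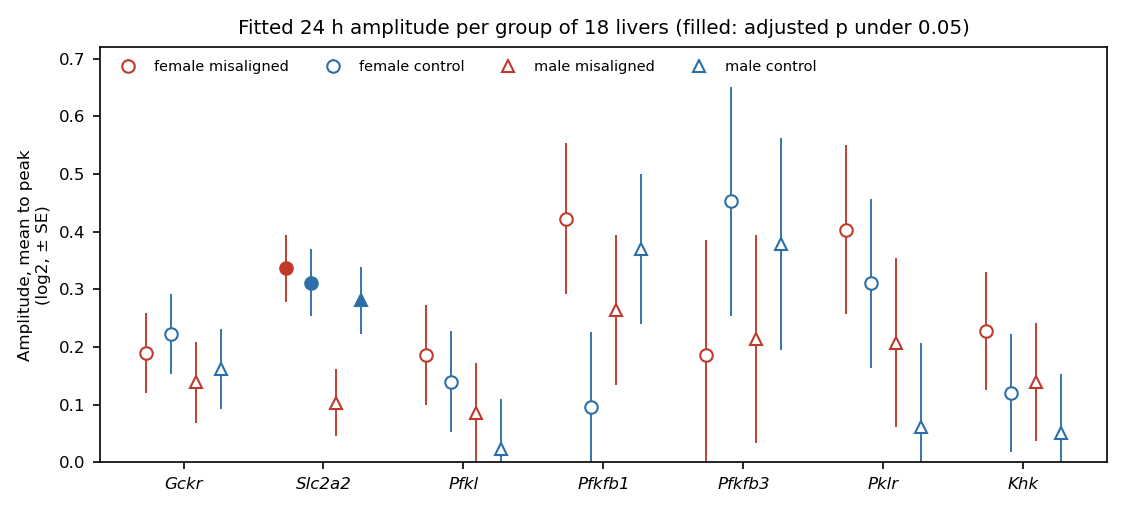
Fitted 24 h amplitude (log2, mean to peak) of each gene in misaligned and control livers of each sex, with bars for the SE and filled points where the rhythm was called. Slc2a2 is called in 3 groups, with amplitudes of 0.34, 0.31 and 0.28, and not in misaligned males, at 0.10.

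Gckr (chromosome 5, 31297443 to 31327314, plus strand) varied little in its gene counts, and its introns showed a daily rhythm in control livers. Reads in introns come mostly from RNA that is not yet spliced. The 18 disjoint Gckr introns held 243 to 750 counts per liver and are given as intron CPM, scaled to the intron counts of the library. Of their 31947 counts over all livers, 17672 lay in the 10 introns that no counted exon overlaps. In misaligned males they stood at intron CPM values of 511.6, 497.4 and 909.5 at 00:00 and at 866.2, 885.0 and 815.2 at 08:00. In control males they stood at 913.3, 892.1 and 1295 at 00:00 and at 501.8, 596.2 and 557.8 at 08:00. The control livers of 00:00 were all above those of 08:00, while in misaligned males the groups overlapped and the 08:00 mean was the higher. In misaligned females the introns had 1080, 1103 and 937.5 at 00:00 and 690.3, 501.0 and 862.1 at 08:00, and in control females 1028, 1228 and 1179 at 00:00 and 653.9, 571.6 and 602.5 at 08:00.

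The intron rhythm of Gckr was called in control females (amplitude 0.46 ± 0.086, peak at 22.4 h, adjusted p = 0.000533), where 4.51% of the 9868 genes tested on introns had one, and in control males (0.46 ± 0.086, peak at 21.7 h, adjusted p = 0.00159), where 2.87% had one. In misaligned females the amplitude was 0.32 ± 0.086 with a peak at 20.3 h and an adjusted p of 0.0657, and in misaligned males 0.22 ± 0.086 with a peak at 6.58 h and an adjusted p of 0.701. The intron rhythm changed between misaligned and control males (adjusted p = 0.00284, called for 2.07% of genes), and the sex difference of that change did not pass (adjusted p = 0.221). Gckr was the only gene of the 7 with a called intron rhythm or a called change of one. Over 9 alternative settings the change in males was called in 8 (adjusted p = 0.0004 to 0.533), and lost without the livers numbered replicate 1. The control male rhythm was lost without replicate 1 (adjusted p = 0.21) and without replicate 3 (0.0605). With only introns that no counted exon overlaps, all 3 Gckr calls held with larger adjusted p-values. These were 0.0123 in control females, 0.0202 in control males and 0.0123 for the change in males. In the gene counts Gckr peaked at 1.34 ± 1.20 h in control females and 0.29 ± 1.65 h in control males, with amplitudes of 0.22 ± 0.070 and 0.16 ± 0.070, and neither was called.

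**Figure D3:**
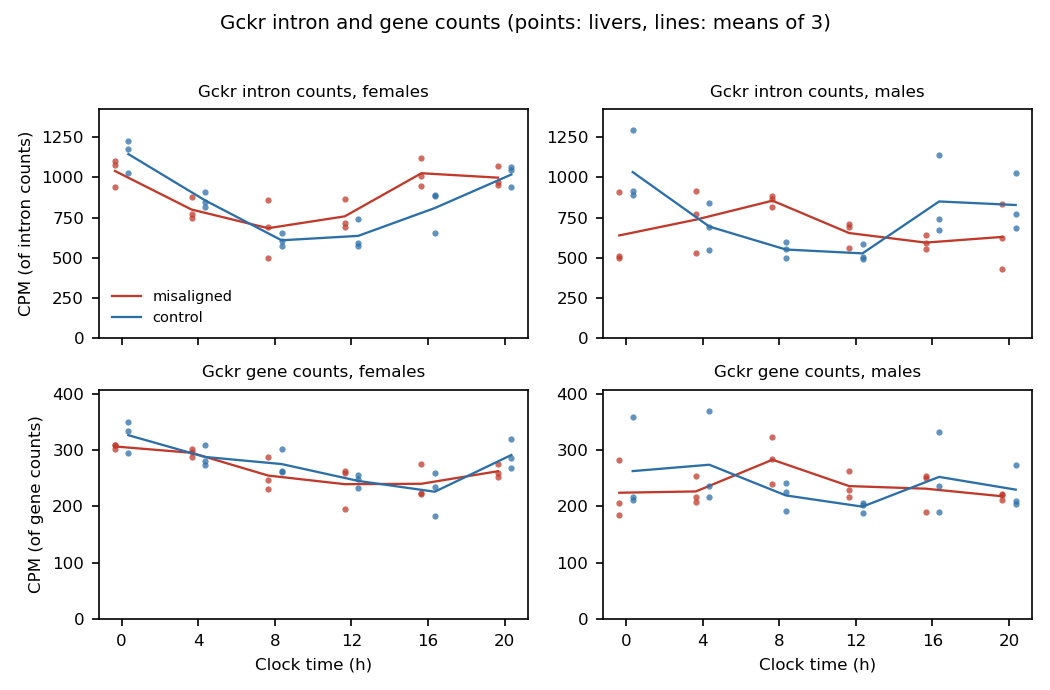
Gckr intron CPM (points, one per liver) and gene CPM by clock time (h) in misaligned and control livers of each sex, with group means joined. Intron levels of both control groups are highest at 0 h (means of 1145 in females and 1033 in males) and near their lowest at 8 h (609.3 and 551.9), while misaligned males have 639.5 at 0 h and 855.5 at 8 h.

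No gene of the 7 was called for a difference in its level averaged over the day between misaligned and control livers, with edgeR, DESeq2 or limma-voom. In females 0 of 7 were called and 0 of 7 had an unadjusted p under 0.05, and 1 gene of 15066 was called in all (0.00664%). In males 0 of 7 were called against 0 of 15066 genes (0%), with 1 of the 7 at an unadjusted p under 0.05. That gene was Pfkfb3, with a difference of 0.51 ± 0.18 on the log2 scale (adjusted p = 0.753). The sex difference of the effect was called for 0 of the 7 and 0 genes in all. Differences at single clock times were tested for the 7 genes in each sex, 84 tests in all, with p-values adjusted over all genes within each time. Of these, 3 were called, and all 3 were in males at 20:00.

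In males at 20:00, Khk, Pfkfb1 and Slc2a2 were higher in misaligned than in control livers, 3 of the 7 genes, all upward, where 8.31% of all genes tested were called higher and 6.07% lower (14.4% in all). Khk (chromosome 5, 30921431 to 30931248, plus strand) had 606.7, 805.3 and 771.9 CPM in misaligned livers, against 483.0, 306.7 and 391.0 CPM in control livers. The 2 groups did not overlap, and the difference was 0.89 ± 0.23 on the log2 scale, a 1.85-fold higher level (adjusted p = 0.00994). Pfkfb1 (chromosome X, 150588229 to 150643878, plus strand) had 52.8, 79.0 and 113.3 CPM in misaligned livers, against 43.7, 44.0 and 34.8 CPM in control livers. It was 2.00-fold higher, by 1.00 ± 0.31 on the log2 scale, again without overlap (adjusted p = 0.0241). Slc2a2, whose values at this time are given above, was 1.44-fold higher, by 0.52 ± 0.15 on the log2 scale (adjusted p = 0.0157). These calls rested on few livers: without control liver 2 of 20:00 the difference was 0.76 for Khk (adjusted p = 0.0975) and 0.49 for Slc2a2 (0.0938). Pfkfb1 was lost without any 1 of the 3 control livers (adjusted p = 0.0521, 0.085 and 0.071) or without misaligned liver 3, where the difference was 0.69 (0.196).

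The size of the differences at 20:00 in males also depended on how libraries were scaled. The TMM factors of the male livers of 20:00 were 1.003, 0.921 and 0.867 in misaligned and 1.113, 1.169 and 1.062 in control livers. With total counts in place of TMM, the median over all genes moved to -0.269, against -0.009 with TMM, and 12.7% of the called genes were higher in misaligned livers, against 57.8%. Under total counts Khk was higher by 0.62 and still called, while Slc2a2 at 0.27 (adjusted p = 0.179) and Pfkfb1 at 0.71 (0.0523) were not. Over the 13 alternative settings Khk was called in 12 (adjusted p = 0.00441 to 0.237), Slc2a2 in 10 (0.00759 to 0.179) and Pfkfb1 in 10 (0.0146 to 0.287).

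The other 4 genes were not called at 20:00 in males. Pfkfb3 had 65.5, 12.2 and 28.6 CPM in misaligned livers, against 16.9, 20.8 and 19.0 CPM in control livers, a difference of 0.91 ± 0.43 (adjusted p = 0.146). The misaligned livers lay on both sides of the controls. With 1 library left out the difference ran between 0.11 and 1.32, and it passed without misaligned liver 2 (1.32, adjusted p = 0.0485). Pklr differed by 0.65 ± 0.37 (adjusted p = 0.232), Gckr by -0.08 ± 0.18 (adjusted p = 0.805) and Pfkl by 0.04 ± 0.21 (adjusted p = 0.927). Marker lists of other cells moved at 20:00 in males too. The red blood cell and platelet markers summed to 304.5 to 513.5 CPM in misaligned livers against 191.3 to 204.7 CPM in control livers. That rise lay in the globin genes and Alas2, such as Hbb-bs at 101.5 to 187.8 against 55.8 to 61.3 CPM. The platelet genes did not share it: Pf4 was lower in misaligned livers, at 0.999 to 1.34 against 1.44 to 1.88 CPM, and Ppbp overlapped. The stellate cell markers summed to 406.0 to 571.6 CPM in misaligned against 596.8 to 830.0 CPM in control livers. The 6 hepatocyte markers summed to 67510 to 95840 CPM in misaligned livers and 67520 to 76040 CPM in control livers. Arntl, a core clock activator, differed 22.0-fold between the highest and the lowest misaligned liver of this time. The part of these cell markers and of clock phase in the 3 differences was not tested. In females at 20:00 no gene of all those tested was called (0%), and the 7 differed by -0.15 to 0.45 on the log2 scale.

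**Figure D4:**
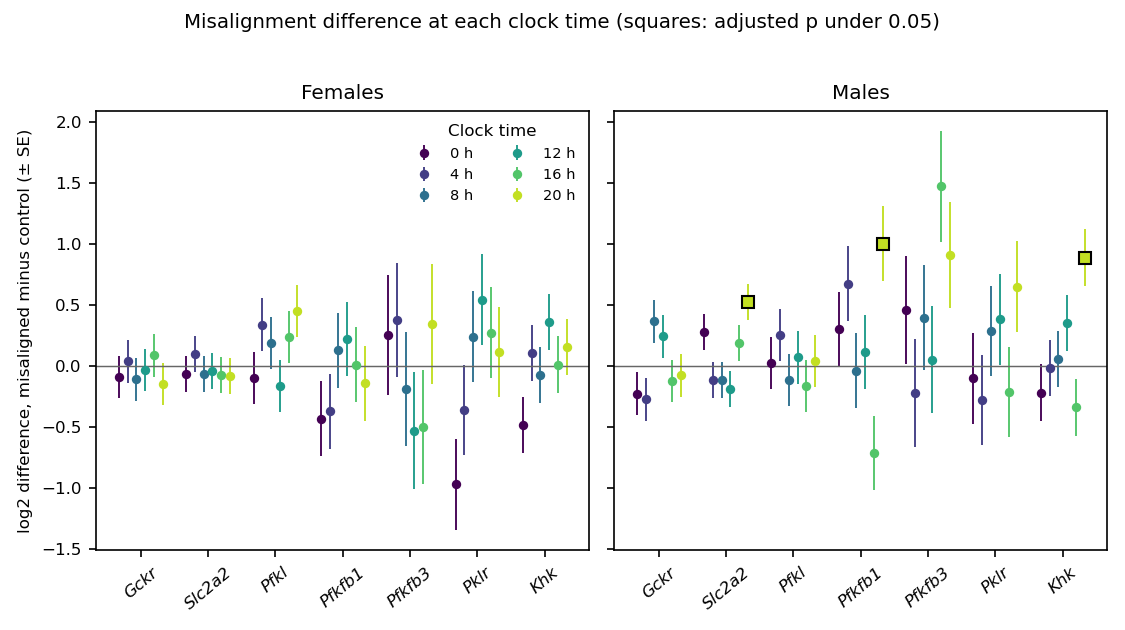
Log2 difference, misaligned minus control, of each gene at each clock time (h) in females and in males, with bars for the SE. Squares mark an adjusted p under 0.05 and circles the rest. The 3 squares are Khk at 0.89, Pfkfb1 at 1.00 and Slc2a2 at 0.52, all in males at 20 h.

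Whether the misalignment difference was unequal over the 6 clock times was also tested. In males 0 of the 7 genes were called (9.26% of all genes), with adjusted p-values of 0.0547 for Pfkfb1, 0.0561 for Khk and 0.0617 for Slc2a2. In females 0 of the 7 were called (0.0332% of genes), each with an adjusted p of 1. At 16:00 in males Pfkfb3 had 31.6, 31.7 and 29.5 CPM in misaligned livers, against 11.8, 7.40 and 14.3 CPM in control livers, without overlap. The difference of 1.47 ± 0.45 did not pass the test (adjusted p = 0.0893), nor did any other of the 7 at that time, where 1.08% of genes were called. It passed with DESeq2 (adjusted p = 0.0452) and with total counts (0.0439), where the median over all genes moved to 0.162, against -0.002 with TMM. At the same time Pfkfb1 lay the other way, with 46.1, 46.8 and 64.7 CPM in misaligned livers, against 70.5, 92.5 and 95.4 CPM in control livers. The groups did not overlap and the difference of -0.71 ± 0.30 was not called (adjusted p = 0.248), 4 h before the time at which Pfkfb1 was called higher.

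Pklr (chromosome 3, 89136142 to 89146784, plus strand) varied widely between livers of one female group. In misaligned females at 00:00 the 3 livers had 749.3, 495.1 and 187.6 CPM, against 1113, 992.9 and 704.1 CPM in control females. The 2 groups overlapped, and the difference of -0.97 ± 0.37 was not called (adjusted p = 0.946). The SD within a clock time on the log2 scale was 0.66 for Pklr in misaligned females and 0.45 in control females, against medians over all genes of 0.26 and 0.28. In misaligned males it was 0.27, against 0.42 in control males. Pfkl (chromosome 10, 77986947 to 78010083, minus strand) was called in no comparison of misaligned with control livers, and its widest single-time difference was 0.45 ± 0.21 in females at 20:00 (adjusted p = 1).

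Between the sexes 3 of the 7 genes were called in each treatment, a share near that of all genes. Pfkfb3 (chromosome 2, 11471433 to 11554077, minus strand) was lower in females than in males. In misaligned livers it spanned 5.68 to 15.1 CPM in females (median 7.98, n = 18) and 10.6 to 65.5 CPM in males (median 26.1, n = 18). In control livers it spanned 4.81 to 19.4 CPM in females (median 8.20) and 7.40 to 38.1 CPM in males (median 18.8). At 5 of the 6 clock times all 3 misaligned females were below all 3 misaligned males, and at 4 of the 6 this held for controls. Female levels were 0.33 times male levels in misaligned livers, a difference of -1.60 ± 0.19 on the log2 scale (adjusted p = 8.84e-10), and 0.48 times in controls, a difference of -1.05 ± 0.19 (adjusted p = 1.37e-05). The difference of those differences did not pass (-0.55 ± 0.26, adjusted p = 0.861). Counts in the last exon alone gave female to male ratios of 0.301 in misaligned and 0.472 in control livers, and counts in 13 inner exons gave 0.287 and 0.428, so both parts of the transcript were lower in females.

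In misaligned livers 3 of the 7 genes differed between the sexes and all 3 were lower in females (19.9% of all genes were called lower and 17.8% higher, 37.7% in all). Besides Pfkfb3 these were Slc2a2, with a median of 289.3 CPM in females and 363.2 CPM in males (-0.31 ± 0.060, adjusted p = 3.32e-05), and Pfkfb1, with 40.6 CPM in females and 61.2 CPM in males (-0.51 ± 0.13, adjusted p = 0.000875). In control livers 3 of the 7 differed, 2 lower and 1 higher in females (32.9% of all genes were called, 17% lower and 16% higher). Slc2a2 was lower in control females, with a median of 296.7 against 340.0 CPM in control males (-0.18 ± 0.060, adjusted p = 0.0176). Gckr was higher in control females, with 270.7 against 216.5 CPM (0.20 ± 0.071, adjusted p = 0.0265), and its difference in misaligned livers, 269.4 against 225.0 CPM (0.17 ± 0.071), just missed the threshold (adjusted p = 0.0535). Pklr, Khk and Pfkl were called in neither treatment. With 1 replicate number left out, the control differences of Slc2a2 were lost each time (adjusted p = 0.0554 to 0.146). That of Gckr was lost without replicate 1 (0.143) and without replicate 3 (0.078), and also without female control liver 3 of 16:00 or male control liver 1 of 00:00, 04:00 or 16:00 (0.0506 to 0.0592), and its misaligned difference passed without any 1 of 19 livers (0.0189 at the lowest). The misaligned difference of Pfkfb1 was lost without replicate 1, at -0.38 (adjusted p = 0.0562).

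The introns gave the same directions in misaligned livers for 3 genes: Gckr was higher in females by 0.36 ± 0.088 (adjusted p = 0.00176), Pfkfb1 lower by a difference of -0.69 ± 0.16 (adjusted p = 0.000772) and Pfkfb3 lower by a difference of -1.95 ± 0.41 (adjusted p = 0.000285), where 18.9% of genes tested on introns were called. The Pfkfb3 introns held only 0 to 82 counts per liver, 773 in all, and 216 of these lay in introns that no counted exon overlaps. In misaligned males at 20:00 their intron CPM values were 145.5, 7.58 and 8.02, so the Pfkfb3 intron value rests on few reads. In controls none of the 7 was called on introns (16% of genes). Marker lists differed between the sexes too. The 6 hepatocyte markers summed to a median of 103100 CPM in misaligned females and 79140 CPM in misaligned males. In controls these medians were 105300 and 79140 CPM. The endothelial and Kupffer cell medians were also higher in females in both treatments. The cholangiocyte median was lower in females, at 103.9 against 142.2 CPM in misaligned and 104.4 against 177.6 CPM in control livers. The adipocyte marker list also differed. Its 4 genes summed to a median of 7.38 CPM in misaligned females and 177.6 CPM in misaligned males, and to 5.25 CPM in control females and 146.9 CPM in control males. Nearly all of that was Cidec, a lipid droplet gene that fatty hepatocytes also express, whereas Adipoq was at 0 in at least 14 of the 18 livers of every group. The part of these marker lists in the sex differences was not tested.

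**Figure D5:**
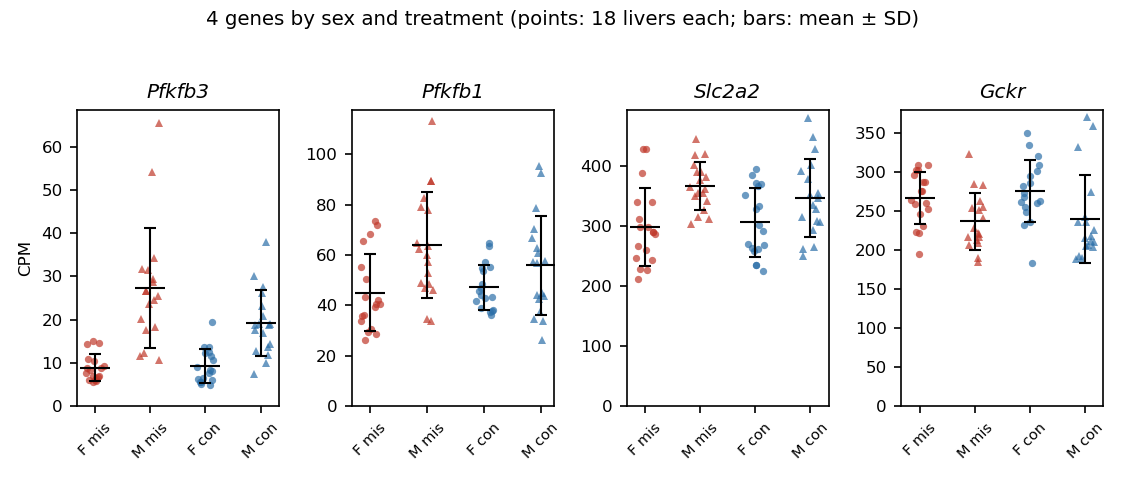
Level of Pfkfb3, Pfkfb1, Slc2a2 and Gckr (CPM) in the 18 livers of each sex and treatment, one point per liver, with bars for the mean ± SD. Pfkfb3 medians are 7.98 and 26.1 CPM in misaligned females and males and 8.20 and 18.8 CPM in control females and males. On the log2 scale this is the widest sex difference among the 7 genes.

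Khk has a pair of alternative exons, 3A, found in many tissues, and 3C, which gives the high-affinity liver enzyme. Among reads joining exon 2 to either of them, those joining 3C made up 93.4 ± 1.49% per liver (SD, n = 72). Over all livers 37328 reads joined exon 2 to 3C and 2585 joined exon 2 to 3A. More reads joined 3A to 3C, 1766, than joined 3A to exon 4, 370. Another 404 reads joined exon 2 directly to exon 4, past both exons, and are outside the shares given here. Among reads leaving either exon for exon 4, those from 3C made up 99.4 ± 0.269%. The share of 3C after exon 2 was 93.2 ± 1.29% in misaligned females, 93.3 ± 1.79% in control females, 93.9 ± 1.44% in misaligned males and 93.2 ± 1.39% in control males (SD, n = 18 each). These differ by less than the spread between livers. The share from 3C among reads leaving for exon 4 was 99.3 ± 0.284% in misaligned females, 99.4 ± 0.257% in control females, 99.7 ± 0.195% in misaligned males and 99.4 ± 0.206% in control males. The gap between misaligned females and misaligned males was wider than either SD. Neither share was tested.

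Other genes of the pathway were read in lists chosen with the earlier results of these data known. In males at 20:00, against 14.4% of all genes called, 4 of 8 genes of fructose breakdown were called and all were higher in misaligned livers. They included Slc2a5, the intestinal-type fructose transporter, at 2.54 ± 0.49 (adjusted p = 0.00176), Aldh2 at 0.65 ± 0.17, Glyctk, glycerate kinase, at 0.52 ± 0.15 and Slc2a8 at 0.64 ± 0.21. Of 20 other glycolytic enzymes 6 were called, 4 higher, among them Tpi1 at 0.51 ± 0.12, Gapdh at 0.65 ± 0.19 and Pfkm, the muscle phosphofructokinase, at 0.43 ± 0.12, and 2 lower, among them the platelet form Pfkp at -1.31 ± 0.38. The median over the 20 was 0.22, against -0.009 over all genes. Of 14 genes of pyruvate entry 5 were higher, led by the pyruvate dehydrogenase kinase Pdk2 at 0.72 ± 0.15, and of 14 regulators of carbohydrate-responsive genes 4 were higher, among them Srebf1 at 1.08 ± 0.39 and Mlx, the partner of the carbohydrate-response factor, at 0.41 ± 0.15. Among 6 other hexose transporters tested, Slc2a9 alone was called, at 0.66 ± 0.16. These list counts at 20:00 depended on the scaling. With total counts, 1 of the 8 genes of fructose breakdown was called (higher), 3 of the 20 glycolytic enzymes (0 higher and 3 lower), 2 of the 14 genes of pyruvate entry (1 higher and 1 lower), 1 of the 14 regulators (higher) and 1 of the 6 transporters (lower), and the median over the glycolytic enzymes was -0.047, against -0.269 over all genes.

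Of the 8 genes of fructose breakdown, 3 had a called rhythm in misaligned females (7.69% of all genes), 3 in control females (12%), 0 in misaligned males (0.00664%) and 3 in control males (10.8%). The 0 in misaligned males is the rate of nearly all genes there and not a trait of the list. Slc2a5 had an amplitude of 0.44 ± 0.19 in misaligned males (adjusted p = 0.658) and 1.02 ± 0.19 in control males (adjusted p = 0.000939), and Sord, which makes fructose from sorbitol, had 0.12 ± 0.065 (adjusted p = 0.782) and 0.26 ± 0.065 (adjusted p = 0.0133). The urate and hexose transporter Slc2a9 had 0.07 ± 0.066 in misaligned males and 0.48 ± 0.066 in control males, and its change of rhythm was called (adjusted p = 0.000286). Of the 20 glycolytic enzymes 1 changed its rhythm in males, Pfkm (adjusted p = 0.045), which is 5% against 9.23% of all genes. Of the 19 core clock genes 14 changed theirs in males.

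Between the sexes, 10 of the 20 glycolytic enzymes were called in misaligned livers and 6 of 20 in controls, and all were lower in females. Gapdh differed by -0.60 ± 0.077 in misaligned and -0.46 ± 0.077 in control livers, Pgam1 by -0.42 ± 0.053 and -0.40 ± 0.053, and Hk2, a low-Km hexokinase, by -1.53 ± 0.29 in misaligned livers. The list shares were 50% in misaligned livers, against 37.7% of all genes, and 30% in controls, against 32.9%. The median difference was -0.25 in misaligned livers and -0.17 in controls, against 0.0072 and 0.0065 over all genes. Mlxipl, which encodes the carbohydrate-response factor ChREBP, was higher in females by 0.83 ± 0.11 in misaligned and 0.67 ± 0.11 in control livers. Of the 14 regulators, 7 were higher and 3 lower in misaligned females, and 7 were higher and 0 lower in control females.

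Among the 7 genes the group means of Pklr and Khk moved together most closely over the 24 groups, with a Pearson correlation of 0.804 on the log2 scale, and Slc2a2 and Pfkfb3 followed at 0.629. The correlations describe 24 means that share libraries within each sex, treatment and time, and no p is given. Over all tested genes of at least 2 CPM, the genes closest to Pklr were Me1, malic enzyme, at 0.884, Dhcr7 of cholesterol synthesis at 0.838 and Gpi1, glucose phosphate isomerase, at 0.834. Closest to Khk were Tkt, transketolase, at 0.847, Borcs5 at 0.834 and Cyp2d40 at 0.827. Closest to Slc2a2 were March5 at 0.953, Mia2 at 0.943 and Mrpl17 at 0.939, and closest to Gckr were Pdcd4 at 0.871, Sap130 at 0.865 and Camk1d at 0.859. For Pfkfb1 these were Sucla2 at 0.900, Sar1b at 0.897 and Atp5g3 at 0.889. For Pfkfb3 they were Cyp21a1 at 0.928, Limk1 at 0.926 and Pdzd8 at 0.924. Pfkl had no close partner, with Atf6b at 0.735, Nob1 at 0.698 and Ppme1 at 0.689.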

How the data were processed

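Poly(A) RNA of whole liver was sequenced with a TruSeq stranded kit as 150 bp read pairs on an Illumina HiSeq instrument, per the labels' protocols, and aligned with STAR 2.6.0c to GRCm38, per the submitters' processing notes. The deposited tables hold whole-number sense counts per gene, exon, intron and junction as the authors made them; the restricted gene count table was used. Totals of 11551524 to 12529963 gene counts per library are close to each other, and how that came about is not given in the sources used here. Gene models carry GENCODE vM21 identifiers.

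The 7 members, the gene lists and the motifs were chosen with earlier results of these data known. Named genes are all members, up to 4 genes per list and comparison with the smallest p, and the 3 genes most like each member. Libraries were grouped by sex, treatment and clock time from the titles, with 3 per group. From the counts, edgeR 4.0.16 (R 4.3.3, TMM, filterByExpr over the 24 groups, robust quasi-likelihood) was fitted to all 72 libraries, once with 24 group means (48 residual df) and once with a mean, cosine and sine of 24 h per sex and treatment (60 residual df). Filtering left 15066 of 27846 genes. P-values are two-sided, Benjamini-Hochberg adjusted over all genes tested, and called under 0.05. CPM values use TMM library sizes (factors 0.836 to 1.17). Introns of a gene were summed where disjoint and within 1 gene, a choice made after the files were seen, which left 9868 genes. Counting uses strand, and antisense counts of the 7 genes reached at most 5 in a library. The fits were tested on simulated data. Alternatives used DESeq2 1.42.0 and limma 3.58.1 among others. PCR duplicates were not marked by molecular identifiers, so counts are not independent molecules. No 2 libraries of the same group agreed within sampling noise (72 pairs, lowest chi-square per degree of freedom 9.79). Libraries of different groups were not compared in this way.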

Additional observations from a re-analysis of the deposited data

How the results depend on the processing

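Counts of members called are out of the 7 genes unless another base is given. With total counts in place of TMM, Gckr and Slc2a2 were called for a rhythm in control and in misaligned females and for a rhythm change in males, which made 2 genes in each against 1. With only genes of at least 5 CPM on average, 2 genes had an unequal effect over the clock times in males (Slc2a2 and Pfkfb1, against 0) and 2 a rhythm in control females (Gckr and Slc2a2). The unequal effect in males was called for 1 gene with limma-voom (Khk) and for 3 with DESeq2 (Slc2a2, Pfkfb1 and Khk), and DESeq2 called a rhythm in misaligned females for 2 (Slc2a2 and Pfkfb1). Fits to the libraries of 1 sex called a rhythm for 2 genes in control females (Gckr and Slc2a2) and for 3 in misaligned females (these and Pfkfb1). The test of equal clock times with 5 df called 2 genes in control males (Slc2a2 and Pfkfb1) and, for the rhythm change in males, 0. Without the livers of 20:00, a choice made after the data were seen, the rhythm change in males was called for 0 genes, and the gene called for a rhythm in control males was Pfkfb1 (adjusted p = 0.0238) in place of Slc2a2. On intron counts, RLE size factors and the authors' maximal counts each called 2 genes in control females (Gckr and Slc2a2, against 1). The causes of these shifts were not tested.

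With the livers of 1 replicate number left out, 1 to 2 genes differed by sex in controls (against 3), 2 to 3 in misaligned livers (against 3), 0 to 1 were rhythmic in control males and 0 to 1 changed rhythm in males. At single clock times 0 to 3 differences were called, and on intron counts 0 to 1 genes were rhythmic in control males and 0 to 1 changed rhythm in males. With each of the 72 libraries left out alone, 0 to 4 differences at single clock times were called (against 3) and 0 to 2 genes had an unequal effect over the clock times in males (against 0). Rhythm calls moved to 2 (against 1) without male control liver 2 of 04:00 or 16:00 in control females (Gckr added), without female misaligned liver 3 of 16:00 in misaligned females (Pfkfb1), and without male control liver 2 of 16:00 (Gckr) or liver 3 of 00:00 (Pfkfb1) in control males. Of 1351 values of single genes under an alternative, 19 lost a call, 23 gained one and 0 reversed a called direction. Most of the 1351 belonged to results not called in the main fit, which could not lose a call. A reversal was counted only for log2 differences called in the main fit.

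Replicate numbers did not pair the livers: deviations of livers with the same number and clock time had a median r of -0.032 over 36 pairs (9 above 0.1), and of livers with different numbers -0.008. A replicate block left the number of genes called within 1.5 times of the main count in every comparison, and with it the sex difference of Gckr in misaligned livers (0.17) passed, with an adjusted p of 0.0448.

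With 3 livers per group and an edgeR fit across 24 groups, differences of low genes such as Pfkfb3 had wide errors, and a difference that was not called is not shown to be absent.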

Other observations

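The level of each of the 7 genes was compared across individual livers with 3 clock genes, Dbp, Per3 and Arntl, within each sex and treatment (n = 18 livers each). This was chosen after the data had been seen, and the 18 livers of a group were taken at 6 clock times, so a shared time of day enters every value. Of the 84 relations, with p-values from 100000 permutations adjusted by Benjamini-Hochberg over the 84, 11 passed 0.05 by Pearson's r and 8 by Spearman's rho. Slc2a2 accounted for 10 of the 11 and all 8, and Pfkfb3 for the other 1. The permutations moved livers freely across the 6 clock times. Their p-values therefore do not separate a relation between single livers from a shared time of day.

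Slc2a2 was higher in livers with more Per3, a period gene. Pearson's r was 0.831 in misaligned females (adjusted permutation p = 0.00168; Spearman's rho 0.874, adjusted p = 0.00084) and 0.722 in control females (adjusted p = 0.0101; rho 0.688, adjusted p = 0.0239). In misaligned males, whose Slc2a2 rhythm by clock time was not called, r with Per3 was 0.712 (adjusted permutation p = 0.0101; rho 0.653, adjusted p = 0.0463). In control males it was 0.785 (adjusted p = 0.00462; rho 0.789, adjusted p = 0.00532). Without the 2 livers farthest from the median Per3 level, r was 0.804 in misaligned females, 0.741 in control females, 0.588 in misaligned males and 0.749 in control males. The relation of Slc2a2 with the other 2 clock genes did not pass in misaligned males: r was 0.458 with Dbp (adjusted permutation p = 0.214) and -0.525 with Arntl (adjusted p = 0.115). Pfkfb3 in misaligned males had an r of 0.633 with Dbp (adjusted permutation p = 0.037), 0.555 without the 2 farthest livers, and a rho of 0.552 that did not pass (adjusted p = 0.0873). Gckr, Pfkl, Pfkfb1, Pklr and Khk passed in 0 of their 12 relations each by either measure.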
